A study of Mus musculus with 12 samples.

Results

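The genes followed here through a labelling time course in mouse fibroblasts encode parts of the circadian clock: Per1, Per2, Per3, Cry1, Cry2, Clock, Nr1d1, Nr1d2, Dbp and Bhlhe40. They were chosen by symbol, whatever their values, and all 10 were found among the 17419 genes of the table. The cells were wild-type NIH-3T3, an immortalised mouse embryo fibroblast line grown with newborn calf serum. They received 4-thiouridine (4sU), a uridine analogue that enters RNA as it is made, at 800 µM for 15, 30, 60, 90 or 120 min, or were left without it (no4sU). Iodoacetamide then altered the incorporated 4sU so that it was read as C, and for each library and gene these conversions give an estimate of the new-to-total ratio (NTR), the share of the RNA that dates from the labelling. Each of the 6 groups held 2 libraries, A and B, 12 in all. The title of the series asks how labelling time biases such data, so each duration was compared with no4sU, 120 min with 15 min, and the level was followed with time. The labels name no separate cultures for A and B, so every p-value measures the spread between these libraries, which may be technical, and no label says that the clocks of the cells were synchronised.

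The mammalian clock is a loop of transcription and repression that runs in fibroblasts as well as in the brain. CLOCK and its partner BMAL1 (gene Arntl) bind E-boxes and activate the Per and Cry genes, whose proteins return to the nucleus and inhibit them. A further loop runs through the nuclear receptors REV-ERBα (Nr1d1) and REV-ERBβ (Nr1d2), which repress Arntl, while DBP activates genes through D-boxes and BHLHE40 (DEC1) competes for E-boxes. The rise and fall of the repressors depends on the removal of their RNA and protein, so RNA turnover is part of how the loop keeps time.

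Between 9917026 and 13739380 reads were counted per library. The fibroblast label was checked with 10 markers, collagens, fibronectin and vimentin among them, and all 10 had a median of at least 10 CPM (reads per library, scaled to a common total), summing to 16584 to 19323 CPM. Of markers of other cells, 1 of 4 epithelial, 2 of 4 leukocyte and 3 of 3 endothelial genes were matched in the table. Cdh1 had a median of 0.158 CPM (epithelial), Ptprc 0.0425 and Cd68 5.48 (leukocyte), and Pecam1 0.0824, Cdh5 1.29 and Kdr 0 (endothelial). Over libraries the matched markers summed to 0 to 0.381 CPM (epithelial), 4.34 to 6.67 CPM (leukocyte) and 0.731 to 1.71 CPM (endothelial). The marker CPM values are scaled by the library total alone, and all other CPM values by TMM (trimmed mean of M-values). Both are relative levels: in bulk RNA, fewer cells and less RNA per cell cannot be told apart.

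Only the longest protein-coding transcript of each gene was searched for 3′ UTR motifs. There, Per1 was the only one of the 10 genes whose 3′ UTR held UUAUUUAUU. That is the core of an AU-rich element, a class of sequence known for marking RNA for rapid decay. It is shown because Per1 was also among the most rapidly renewed members, but Bhlhe40, Nr1d1 and Cry2, also rapidly renewed, had 0 copies. Whether the element acts on Per1 RNA was not tested. The element starts at base 337 of the 601-base 3′ UTR on chromosome 11 (GENCODE M21, GRCm38, plus strand), and its letters are in capitals.
Per1 3′ UTR: ggggcugcacUUAUUUAUUugggagagac
The same letters were found in 8.47% of the 8919 3′ UTRs of genes that averaged 100 counts or more. That share depended on length. It was 3.08% among the 3770 of up to 1000 bases, where Per1 belongs, and 22.4% among the 820 longest. Bhlhe40 had 0 copies of the shorter AUUUA and Clock, with 6831 bases, had 20.

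In the promoters of RefSeq (GRCm38.p6, 250 bases before to 50 after a start), 8 of the 10 genes were matched. The E-box CACGTG, which reads the same on both strands, was found in Per1 and Cry1, and in 7.15% of all 32851 windows. The D-box TTATGTAA, searched on both strands, was found in Per3 and in 0.938% of the windows. The E-boxes of Per1 and Cry1 are shown in capitals because, of the well-counted members, these had the highest and the lowest share of new RNA at 60 min, and both carry the motif.
Per1 promoter, chr11:69098753-69098818, plus strand: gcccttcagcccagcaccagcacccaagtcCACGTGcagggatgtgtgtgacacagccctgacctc
Cry1 promoter, chr10:85185079-85185144, minus strand: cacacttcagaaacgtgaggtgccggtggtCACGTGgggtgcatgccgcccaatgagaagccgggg
The Per1 stretch lies inside the gene as annotated by GENCODE (chr11:69095217-69109960), before an internal start. A match of letters is a description of the window, and binding was not measured.

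On the scale of CPM per kilobase of transcript, the levels fell into a higher and a lower group. Nr1d1 had the highest median over the 12 libraries, 17.7 (13.9 to 19.6). It was followed by Bhlhe40 at 13.6 (10.3 to 14.9), Nr1d2 at 10.8 (8.95 to 11.8) and Per1 at 9.37. The range of each of these genes overlapped that of its neighbours in the order.
Clock had a median of 7.42 CPM per kilobase (6.05 to 8.26), Cry1 6.81 (5.80 to 7.79) and Cry2 6.05 (4.88 to 6.87), again with overlapping ranges. Below a gap with no overlap lay Dbp at 0.832 (0.490 to 1.52), Per3 at 0.680 (0.419 to 0.882) and Per2 at 0.438 (0.288 to 0.650). The mean counts of these 3 genes were 17.5, 45.8 and 29.8 reads per library, under the minimum of 100 used for statements on NTR, whereas the other 7 had 233 to 818.

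**Figure D1:**
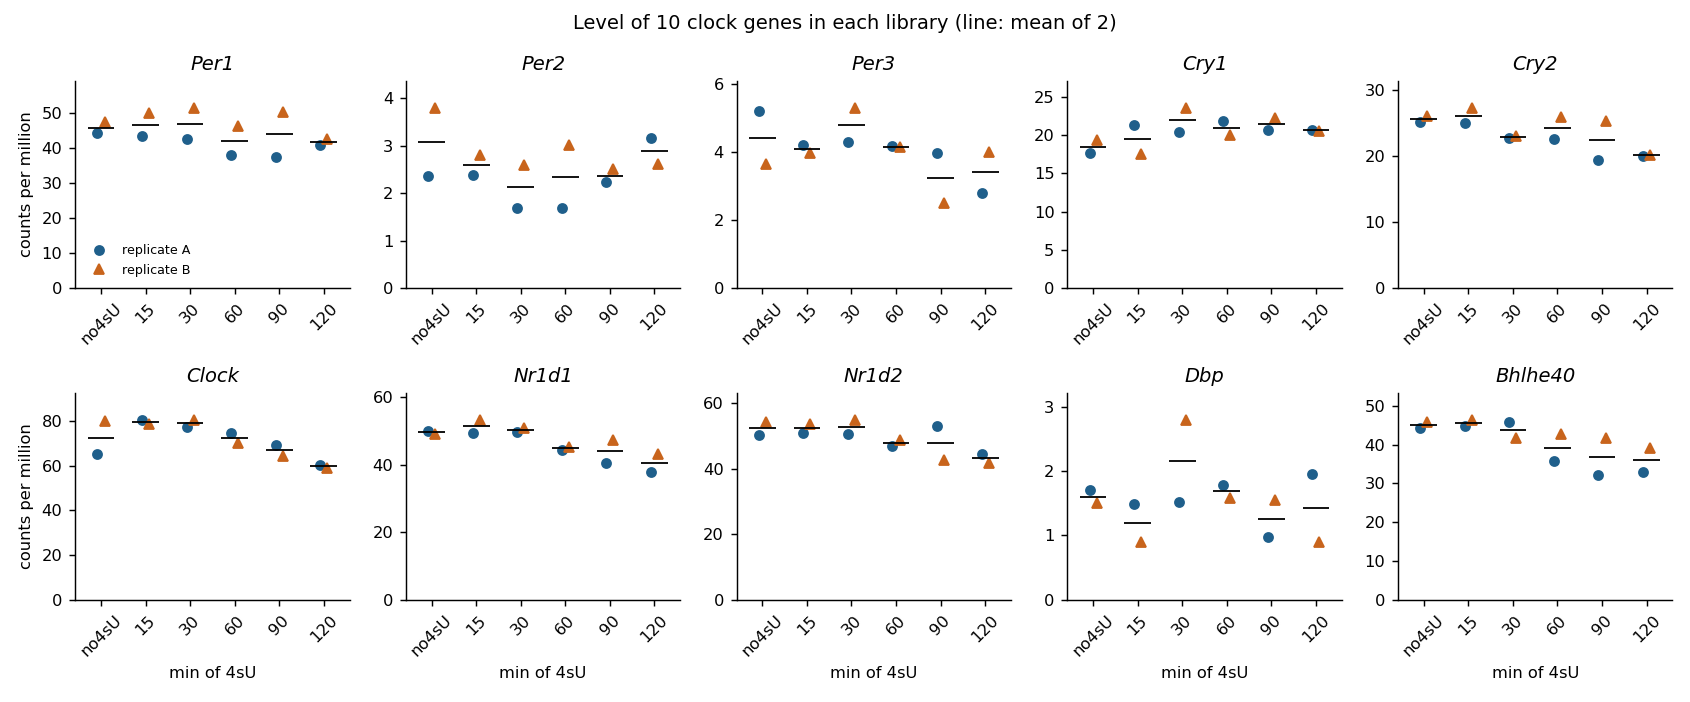
Level of each clock gene in each of the 12 libraries by labelling time, as TMM-scaled CPM, with a point per library. Clock falls from 80.4 and 78.7 CPM at 15 min to 60.2 and 59.0 at 120 min, while Cry1 shows no such fall.

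Among the period genes, which encode the PER repressors, Per1 RNA (chr11:69095217-69109960, plus strand, GENCODE M21 on GRCm38, as for all locations here) was renewed within the time course. Over the 5 durations in order, its NTR was 0.0892, 0.211, 0.724, 0.881 and 1.0 in library A and 0.0436, 0.249, 0.745, 0.903 and 1.0 in library B. Both libraries of each later duration lay above both of the one before it. The value deposited is the most probable one, so 1.0 stands at the edge of its range, and the 0.05 and 0.95 quantiles at 120 min were 0.937 and 0.998 in A.
Old (unlabelled) Per1 RNA went from 39.5 and 47.8 CPM after 15 min of labelling to 10.5 and 11.8 CPM after 60 min and 4.43 and 4.92 CPM after 90 min. The total level, by contrast, stayed between 37.4 and 51.4 CPM in the 12 libraries. Per1 was lower in library A than in B in 6 of 6 groups.

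Per2 (chr1:91415982-91459324, minus strand) was too scarce for a time course of the same detail, with 17 to 53 reads per library. Its NTR was estimated at 0 in all 4 libraries of 15 and 30 min, with 0.95 quantiles of up to 0.366. At 60 min it was 0.821 and 0.815, with 0.05 quantiles of 0.401 and 0.526, which lie above those limits. The last durations gave 1.0 and 0.769 in A and 0.845 and 1.0 in B.
Per3 (chr4:151003652-151044665, minus strand) had an NTR of 0.0364, 0.129, 0.299, 0.679 and 0.803 over the durations in A and of 0.140, 0.324, 0.140, 0.434 and 0.520 in B. The intervals of its 2 libraries overlapped at 60, 90 and 120 min, and Per3 at 60 min lay below Per2 without overlap only in library B (0.95 quantile 0.305 against a 0.05 quantile of 0.526).

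The cryptochromes, partners of PER in repression, differed from each other. Cry2 (chr2:92403646-92434043, minus strand) had an NTR of 0.0229, 0.213, 0.548, 0.902 and 1.0 over the durations in A and of 0, 0.242, 0.584, 0.809 and 1.0 in B. Cry1 (chr10:85131700-85185064, minus strand) had 0, 0.0485, 0.125, 0.244 and 0.413 in A and 0.0065, 0.0237, 0.179, 0.256 and 0.340 in B. The highest 0.95 quantile of Cry1 at 120 min, 0.489, was below the lowest 0.05 quantile of Cry2 at 90 min, 0.714, so the paralogues were apart in every library of these durations.
Old Cry1 RNA was still 12.2 and 13.6 CPM at 120 min, of 20.7 and 20.6 CPM in total. Cry2 shares 295 exonic bases with the gene D930015M05Rik on the opposite strand; the sources used here do not say whether strand was counted, so its reads there are uncertain.

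Clock (chr5:76209868-76304792, minus strand), the activator, lay between these extremes. Its NTR over the durations was 0.0287, 0.103, 0.311, 0.529 and 0.626 in A and 0, 0.112, 0.345, 0.436 and 0.652 in B. It rose at every step in both libraries. Old Clock RNA fell from 78.1 and 78.7 CPM at 15 min to 22.5 and 20.6 CPM at 120 min, without overlap.

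The paired nuclear receptors also differed. Nr1d1 (chr11:98767932-98775333, minus strand) had an NTR of 0.0488, 0.203, 0.680, 0.846 and 0.958 over the durations in A and of 0.0301, 0.280, 0.672, 0.854 and 1.0 in B. Nr1d2 (chr14:18204054-18239127, minus strand) had 0.0112, 0.0516, 0.217, 0.410 and 0.590 in A and 0.0078, 0.0761, 0.234, 0.437 and 0.667 in B. At 60 min the lowest 0.05 quantile of Nr1d1, 0.604, was above the highest 0.95 quantile of Nr1d2, 0.277.
Both receptors had similar totals in the unlabelled cells, 50.0 and 49.1 CPM for Nr1d1 and 50.3 and 54.2 CPM for Nr1d2, so the NTR of both rests on similar read numbers. Nr1d1 shares 263 exonic bases with Thra, the thyroid hormone receptor gene on the opposite strand. Thra had a median of 28.6 CPM and an NTR of 0.142 at 60 min, far from the 0.676 of Nr1d1, and the share of its reads in the Nr1d1 count was not tested.

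Of the output and E-box regulators, Bhlhe40 (chr6:108660629-108666925, plus strand) was renewed about as quickly as Per1. Its NTR over the durations was 0.0735, 0.359, 0.649, 0.842 and 0.957 in A and 0.0291, 0.290, 0.810, 0.923 and 1.0 in B. At 60 min the intervals of its 2 libraries did not meet (0.572 to 0.725 in A, 0.735 to 0.875 in B). Bhlhe40 shares 118 exonic bases with 0610040F04Rik on the opposite strand.
Dbp (chr7:45705088-45710203, plus strand), with 10 to 28 reads per library, gave an NTR of 0, 0.296, 0, 0.739 and 0.808 over the durations in A and of 0, 0.212, 0.452, 0.434 and 0.285 in B, so its libraries did not fix a rate. It also shares 539 exonic bases with Sphk2, which had a median of 23.3 CPM against at most 2.80 CPM for Dbp, and its reads are uncertain for that reason too.

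**Figure D2:**
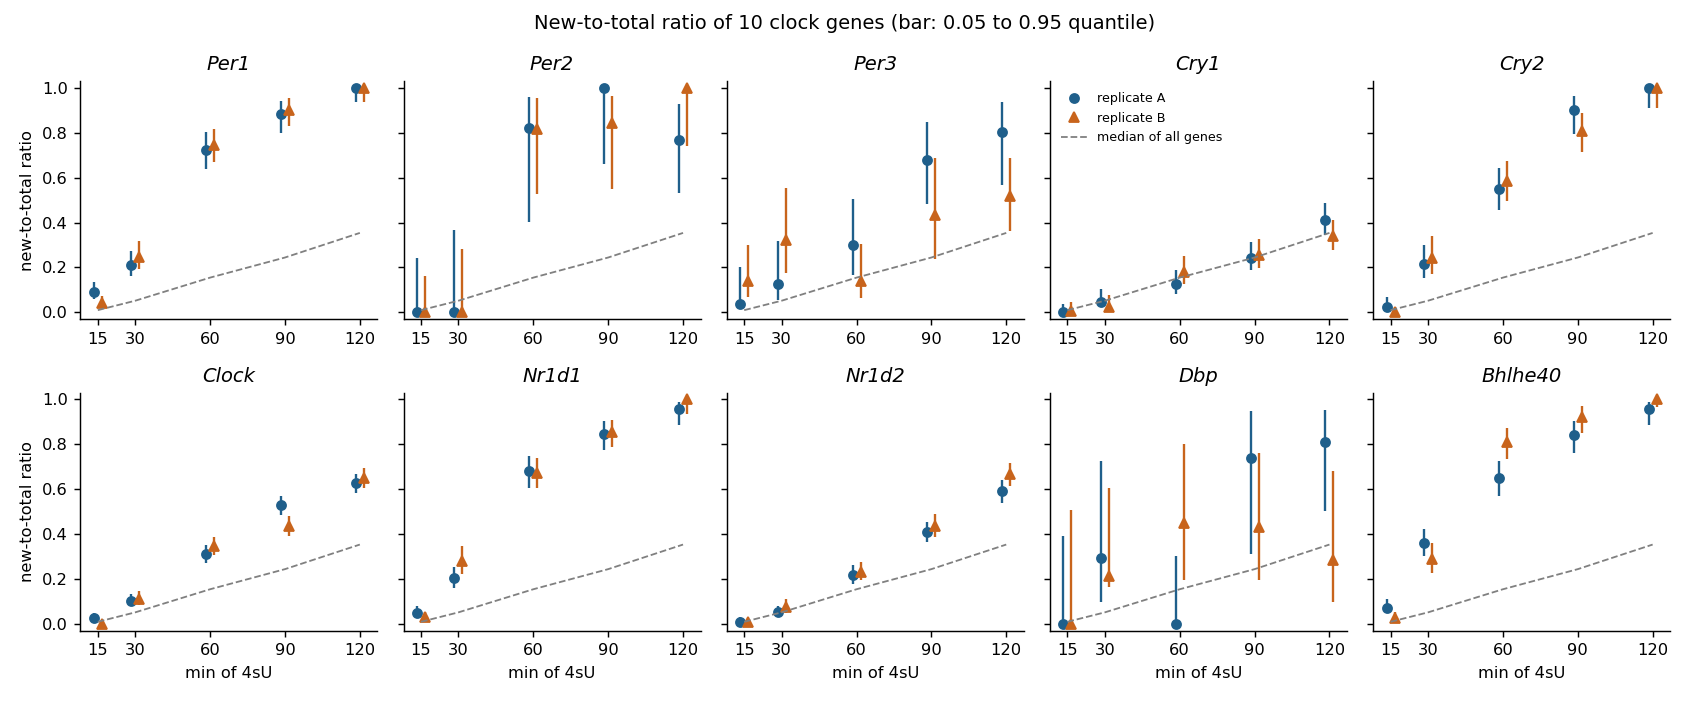
New-to-total ratio of the clock genes by labelling time in min, with a point per library and bars from the 0.05 to the 0.95 quantile; the dashed line is the median of all 9065 genes that averaged 100 counts or more. Per1, Bhlhe40, Nr1d1 and Cry2 run far above the line, Clock and Nr1d2 moderately above it, and Cry1 along it.

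In the order of mean NTR at 60 min, Per1 (0.734), Bhlhe40 (0.730), Nr1d1 (0.676) and Cry2 (0.566) led, then Clock (0.328), Nr1d2 (0.225) and Cry1 (0.152). Only the step from Cry2 to Clock was free of overlap between the quantile intervals of all libraries (0.454 against 0.387). Other neighbours did not differ beyond those intervals. The gap above Clock was also there at 90 min (0.775 for Nr1d1 against 0.572) and at 120 min (0.885 for Bhlhe40 against 0.695), and a second gap set Cry1 below Nr1d2 at 90 min (0.366 against 0.326) and 120 min (0.541 against 0.489). Relative to each other, the 7 well-measured members thus showed 4 fast, 2 intermediate and 1 slow transcript at 90 and 120 min.

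Across those 9065 genes, the median NTR was 0.155 ± 0.00410 (SD, n = 2 libraries) at 60 min and 0.354 ± 0.00523 at 120 min. For the 7 members the medians were 0.566 ± 0.0257 and 0.978 ± 0.0305. At 60 min the NTR of Per1 was higher than that of 98.3% of these genes, Bhlhe40 than 98.2%, Nr1d1 than 97.5% and Cry2 than 95.5%. Clock exceeded 82.9%, Nr1d2 68.8% and Cry1 48.8%, so Cry1 lay near the median gene. These places are a description of the members, which share libraries and depth with all other genes.

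**Figure D3:**
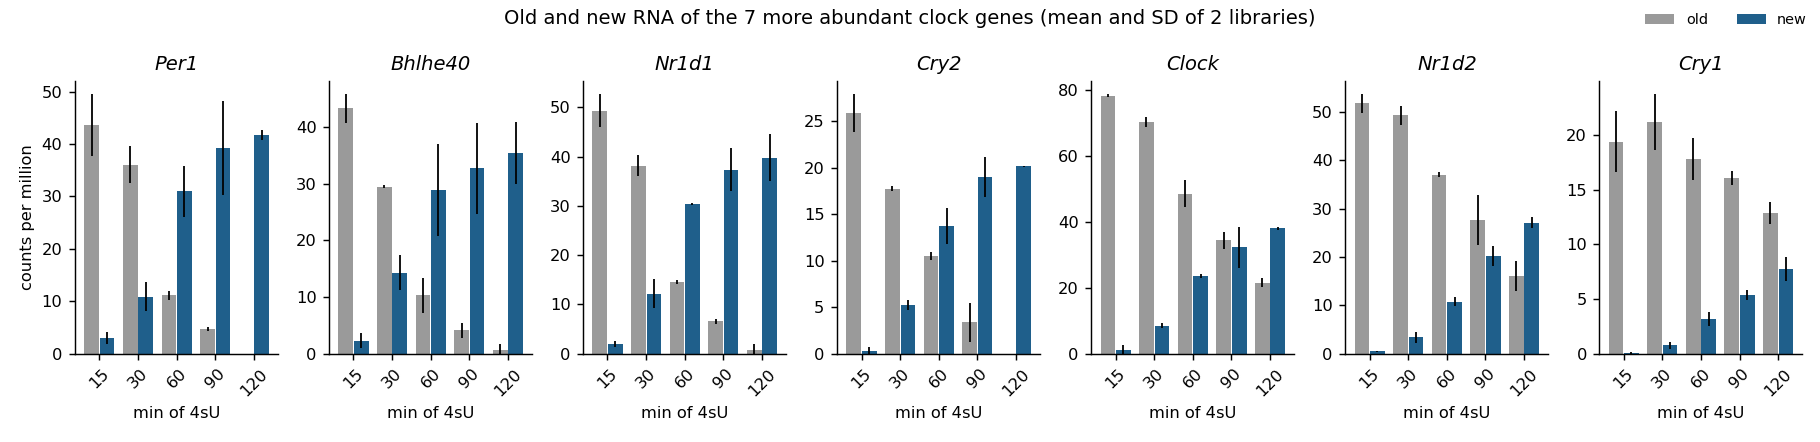
Old and new RNA of the 7 better counted clock genes, by labelling time, as mean CPM with SD over 2 libraries. In the means, new RNA passes old RNA between 30 and 60 min for Per1, Bhlhe40, Nr1d1 and Cry2, between 90 and 120 min for Clock and Nr1d2, and not by 120 min for Cry1.

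An apparent half-life was computed from the NTR, assuming a constant level and labelling from the start. At 60 min it was 31.4 ± 1.35 min for Per1 (SD, n = 2 here and below), 32.4 ± 10.3 min for Bhlhe40, 36.9 ± 0.565 min for Nr1d1 and 49.9 ± 3.55 min for Cry2. It was 105 ± 9.70 min for Clock, 163 ± 9.97 min for Nr1d2 and 261 ± 71.9 min for Cry1. The gap between Cry2 and Clock carries over from the NTR by construction, since the half-life at 60 min is computed from it alone.
The value depended on the labelling time. For Per1 it was 172 min from the 15 min libraries, 80.3 min from 30 min and 28.0 min from 90 min, and for Nr1d2 it went from 163 min at 60 min to 84.4 ± 12.5 min at 120 min. At 120 min an NTR of 1.0 gives no half-life, and the 0.05 quantiles set upper limits of 30.4 min for Per1, 34.7 min for Cry2, 38 min for Nr1d1 and 38.5 min for Bhlhe40. Clock had 81.7 ± 3.96 min and Cry1 178 ± 31.0 min.

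The loss of old RNA with time gave a second reading, which needs no constant total. Its half-life was 21.2 min for Bhlhe40, 22.2 min for Per1, 22.3 min for Nr1d1 and 25.2 min for Cry2, with 8 or 9 libraries where the NTR was below 0.99. It was 56.2 min for Clock, 62.5 min for Nr1d2 and 166 min for Cry1, over 10 libraries. Fitted on library A or B alone, the values were 22.5 and 21.8 min for Per1, 57.3 and 55.2 min for Clock, 75.0 and 53.7 min for Nr1d2, and 138 and 207 min for Cry1.
Of the 9065 genes fitted, old RNA fell in 8198, with a median of 147 min. The other genes were left out of this median and of the shares that follow. Of the 8198, 2.53% had a shorter value than Bhlhe40, 2.93% than Per1, 3.03% than Nr1d1 and 5.10% than Cry2. Clock had 20.9% of them below it, Nr1d2 23.8% and Cry1 54.4%. Both readings use the same NTR values and are not independent.

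Total levels were compared next, as estimated counts tested with edgeR's quasi-likelihood method and adjusted by Benjamini-Hochberg over all genes. All 10 members passed the filter on low counts. Against no4sU, 0 members were called at 15, 30, 60 or 90 min by edgeR, with 0, 1, 0 and 1 below 0.05 before adjustment. DESeq2 also called 0, with 0, 0, 0 and 1 before adjustment. The background of genes called lower at these times was 0%, 0%, 0.00865% and 0.943%.

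At 120 min against no4sU, 4 members were lower and 0 higher, where 8.78% of the 11564 genes tested were called lower. Clock had 65.0 and 80.0 CPM without 4sU and 60.2 and 59.0 CPM at 120 min, a log2 fold change of -0.29 ± 0.0824 (SE; adjusted p = 0.0239). Cry2 (-0.35, adjusted p = 0.0415), Nr1d1 (-0.28, 0.0311) and Nr1d2 (-0.28, 0.0389) were called as well. The groups did not overlap for these genes, with 120 min lower. The same held for Bhlhe40 (-0.31, adjusted p = 0.0599) and Per1 (-0.14, 0.464), which missed the threshold. Cry1 was without overlap in the other direction, with 20.7 and 20.6 CPM at 120 min against 17.7 and 19.3 CPM without 4sU. The share of all genes without overlap was not counted, so this separation is a description only.
The median of the 10 members was -0.28 and that of all genes 0.01, and 9 of 10 members against 49.0% of genes were below 0. Cry1 was above, at 0.15 (adjusted p = 0.390). The calls rest on few libraries: 0 members were called without either 120 min library and 0 when only these groups were fitted. Without no4sU B, Nr1d1 was the 1 member called, and Clock was at -0.13 (adjusted p = 0.286, edgeR). Without no4sU A, 5 were called, with Bhlhe40 the added member (-0.33, adjusted p = 0.0190) and Clock at -0.43.
Bhlhe40 was also called with scaling by library size alone (-0.38, adjusted p = 0.0238) and with no filter on low counts (-0.31, 0.0121), and was at -0.19 without 120 min A. DESeq2 called 1, Clock.

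At 120 min against 15 min, 5 members were lower and 0 higher, against 11.3% of all genes called lower. Clock went from 80.4 and 78.7 CPM to 60.2 and 59.0 CPM, a log2 fold change of -0.42 ± 0.0824 (adjusted p = 0.00188). Cry2 fell from 25.0 and 27.3 to 20.1 and 20.2 CPM (-0.38 ± 0.114, adjusted p = 0.0261). In both genes, each 120 min library was below each 15 min library.
Nr1d1 went from 49.3 and 53.3 to 37.9 and 43.1 CPM (-0.34 ± 0.0854, adjusted p = 0.00989). Nr1d2 changed from 50.9 and 53.6 to 44.5 and 41.7 CPM (-0.28 ± 0.0904, adjusted p = 0.0347). Bhlhe40 dropped from 44.8 and 46.5 to 33.0 and 39.3 CPM (-0.33 ± 0.110, adjusted p = 0.0419). These 3 genes did not overlap between the groups either, and nor did Per1, which edgeR did not call (adjusted p = 0.375). How many of all genes were without overlap was not counted, so this separation too is a description only.
The members' median was -0.26 and that of all genes 0.01. Clock alone was called with each of the 4 libraries left out. Nr1d1 was called without 15 min A or 120 min B, and Cry2, Nr1d2 and Bhlhe40 in none of the 4 cases, with Bhlhe40 at -0.21 without 120 min A. DESeq2 called 2 members, Clock and Nr1d1.

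Over the 10 labelled libraries, the slope of log2 level with time was negative and called for 5 members and positive and called for 0, against 19.5% of 11526 genes called lower. The slopes per hour were -0.24 ± 0.0290 (SE) for Clock (adjusted p = 1.65e-08), -0.20 ± 0.0459 for Bhlhe40 (0.000566), -0.19 ± 0.0374 for Nr1d1 (6.57e-05), -0.17 ± 0.0525 for Cry2 (0.00819) and -0.16 ± 0.0377 for Nr1d2 (0.000802). Clock thus fell by 15.5% per hour. All 5 calls were made with each of the 10 libraries left out in turn.
Per1, with an NTR like that of Bhlhe40, had a slope of -0.09 ± 0.0478 that did not pass (adjusted p = 0.131). It passed at -0.13 with scaling by library size alone (adjusted p = 0.0406) and at -0.12 without 90 min B (0.0326), and Per3 passed at -0.36 without 120 min B (0.0426). Per1 also passed when the replicate letter was a block in the fit, as given further below. Whether the slope of Per1 differs from that of Bhlhe40 was not tested. Per3 (-0.24 ± 0.115, adjusted p = 0.103), Dbp (-0.15 ± 0.199, 0.587), Per2 (0.13 ± 0.141, 0.500) and Cry1 (0.02 ± 0.0521, 0.810) were not called. The SEs of Per2, Per3 and Dbp were larger than those of the other 7 members, which had more reads.
The median slope was -0.17 for the 10 members and 0.00 for all genes.

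The NTR rose over the same durations as these levels fell, and its part in the falls was not tested. The shares of all genes called lower, given above for comparison, were not matched for NTR. Across genes, the change in level had a negative correlation (rho) with NTR. In libraries A and B, rho was -0.4069 and -0.427 at 60 min and -0.5871 and -0.6339 at 90 min. At 120 min it was -0.7204 and -0.7445. The new part of each count at 60, 90 and 120 min was then scaled up by an implied loss of labelled reads (19.6% to 35.6%). In each library this loss was set to bring that correlation to 0, and it was not measured. After the scaling, 0 members were called at 120 min against no4sU, 0 against 15 min and 1 in the trend, Clock, with a slope of -0.15. On that scale the slope of Nr1d1 was 0.02, of Bhlhe40 0.02, of Cry2 0.04 and of Per1 0.13. That scaling is built to remove a relation with NTR, so a smaller fall after it is part of its construction.

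**Figure D4:**
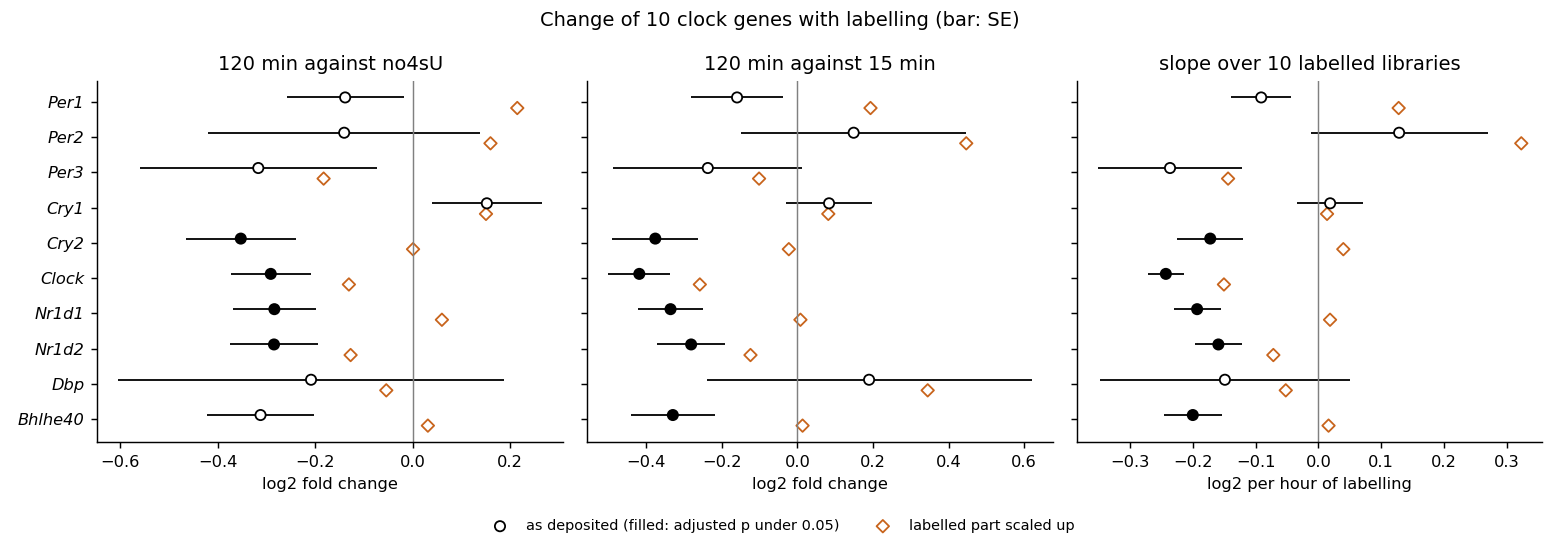
Log2 change of the clock genes at 120 min against no4sU and against 15 min, and slope per hour over the 10 labelled libraries, from edgeR with SE bars; filled points passed an adjusted p of 0.05. Clock, Cry2, Nr1d1 and Nr1d2 pass in all 3 comparisons, Bhlhe40 in 2, and Cry1 lies above 0 in these fits, though its slope turned to -0.016 when scaled by library size alone.

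Beyond the 10, 20 other genes of the clock were listed, of which 19 were matched in the table and 16 tested. Of these, edgeR called 5 lower at 120 min against no4sU (8.78% of all genes), 7 against 15 min (11.3%) and 9 in the trend (19.5%), and 0 higher in any of them. DESeq2 called 4, 6 and 9 lower. Usp2, a deubiquitinating enzyme, had the lowest value against 15 min at -0.75 ± 0.112 (adjusted p = 0.000223). Nfil3, a repressor at D-boxes, was at -0.49 (0.0129) and Arntl, which encodes BMAL1, at -0.43 (0.0295).
Genes that act on the stability of clock proteins were also called against 15 min. The ubiquitin ligase subunit Fbxw11 was at -0.35 (adjusted p = 0.000850), and the kinases Gsk3b and Csnk1d were at -0.29 and -0.23 (0.0201 and 0.00667). Cipc, an inhibitor of CLOCK, and Timeless were called in the trend only, at -0.13 and -0.09 per hour (0.0231 and 0.0179).
The NTR of Arntl, the partner of Clock, was 0.236 ± 0.0173 at 60 min and 0.756 ± 0.0880 at 120 min. Nfil3 had 0.830 ± 0.0552 at 60 min, close to the 0.734 of Per1. Over the 13 other clock genes that averaged 100 counts or more, the median NTR was 0.254 ± 0.00778 at 60 min, between that of all genes and that of the 7 members.

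The gene with the most similar NTR over the 10 labelled libraries was named for each of the 7 members, as the smallest Euclidean distance among 9058 genes. For Clock it was Csf1, a macrophage growth factor (distance 0.0471, NTR 0.324 at 60 min). For Nr1d1 it was Rgma (0.0425), for Nr1d2 Lrrc14 (0.0329) and for Cry1 Ddx3y (0.0329). Tet3 was nearest to Per1 (0.0781), Cdca7 to Cry2 (0.0749) and Irf2bp2 to Bhlhe40 (0.0980).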

How the data were processed

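NIH-3T3 libraries (12, in 6 groups of 2) were grouped by their titles, and columns of the single deposited table were matched by name, with 0 columns of other samples. Estimated counts per gene were deposited by the authors unscaled, and were rounded for the tests, since 20.4% had decimals (tolerance 1e-06). The NTR was deposited as a fraction per labelled library, per the file headers as a posterior maximum (used here), a mean, and quantiles at 0.05 and 0.95. The deposited alpha and beta values, each a score without fixed range, were not used. The submitters' processing notes name cutadapt, Bowtie2 2.3.0 and STAR 2.7.10b without roles. Not given in the sources used here are the counting tool, genome build, annotation and strand use. Entries without a gene numbered 0.

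The tests used edgeR 4.0.16 (R 4.3.3, filterByExpr, TMM factors 0.970 to 1.02, quasi-likelihood, all 12 libraries in 1 fit, 11564 genes), and the trend over the 10 labelled libraries (11526 genes). The Benjamini-Hochberg threshold was 0.05, and SE is the absolute log2 change over the square root of F. The common biological coefficient of variation was 4.44%. DESeq2 1.42.0 was the other tool. The scripts were tested on simulated data. New and old CPM are the NTR, and 1 minus it, times TMM-scaled CPM. The half-life from the NTR is ln 2 times labelling time over -ln(1-NTR), for NTR between 0.01 and 0.99, and that of old RNA comes from the slope of ln old CPM with time. Python 3.11.15 was used with pandas 2.3.3, numpy 2.4.6, matplotlib 3.10.9 and scipy 1.17.1. Locations come from GENCODE M21 on GRCm38 by Ensembl ID, counted from 1. SDs describe 2 libraries, and 2 against 2 libraries cannot give an exact permutation p below 0.333.

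The members, gene lists, comparisons and alternatives were chosen with earlier results of these data known. The rule for names took all 10 members, other clock genes past the threshold against 15 min or in the trend, and the nearest gene by NTR; 1 gene that the rule names is not reported here. Alternatives were the tool, scaling, filter, replicate block, left-out libraries, the groups fitted, loss scaling, posterior mean and count minimum.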

Additional observations from a re-analysis of the deposited data

How the results depend on the processing

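Calls in the trend over labelling time held most widely. Of the genes tested, 1643 were called at 120 min against no4sU, and DESeq2 called 1059, the fit of only these groups 171 and the scaling by implied loss 194. With a library left out the count ran from 452 to 3533. For clock genes, the 4 calls became 1, 0 and 0 under these settings, and ran from 0 to 5 with a library left out. At 120 min against 15 min, the 2228 genes became 1469 with DESeq2, 3818 in the fit of only these groups and 240 with loss scaling, and 657 to 1037 with a library left out. The 5 clock genes became 2 with DESeq2, 0 with loss scaling, and 1 to 2 with a library left out. In the trend, loss scaling gave 1510 of 4362 genes and 1 of 5 clock genes. Smaller counts after loss scaling are part of its construction; elsewhere the cause was not tested.

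Scaling by library size alone moved the median of all genes by less than 0.1 and gave 203 higher and 1684 lower genes at 120 min against no4sU (628 and 1015 with TMM), 426 and 1867 against 15 min (917 and 1311), and 1172 and 3031 in the trend (2111 and 2251), with 5, 5 and 6 clock genes called lower. Per1 was then called in the trend, at -0.13 (adjusted p = 0.0406, edgeR), and Cry1 turned to -0.016.

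Loss scaling turned the sign at 120 min against no4sU for Per1 (0.21), Per2 (0.16), Cry2 (0.000512), Nr1d1 (0.060) and Bhlhe40 (0.031), against 15 min for Per1 (0.19), Nr1d1 (0.0082) and Bhlhe40 (0.014), and in the trend for Per1 (0.13), Cry2 (0.040), Nr1d1 (0.018) and Bhlhe40 (0.016). Leaving out a library gave ranges that include 0 for Per2 (-0.40 to 0.28) and Dbp (-0.81 to 0.29) against no4sU, Cry1 (-0.051 to 0.23) and Dbp (-0.41 to 0.69) against 15 min, and Cry1 (-0.036 to 0.048) and Dbp (-0.34 to 0.035) in the trend.

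The labels do not say whether libraries of the same letter belong together. Over 15 pairs of groups, deviations from the group means correlated between -0.0726 and 0.0896, which does not settle it. By these values 10 of 12 libraries were closest to their own letter. With 2 libraries a group, the deviation of B mirrors that of A, so A and B are not separate cases in that count. With the replicate block, 1737, 2315 and 4447 genes and 5, 5 and 6 clock genes were called in the same order, Bhlhe40 among them against no4sU (-0.31, adjusted p = 0.0389, edgeR) and Per1 in the trend (-0.097, adjusted p = 0.0361).

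Depth limits Per2, Per3 and Dbp. The NTR at 15 min and values near 1 at 120 min rest on the edge of the estimate: the posterior mean for Cry2 at 120 min was 0.985, and its old RNA half-life then 17.3 min.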

Other observations

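The intervals of libraries A and B (0.05 to 0.95 quantile of the NTR) did not meet for Clock at 15 min, Bhlhe40 at 60 min and Clock at 90 min, that is 1 of the 7 well-counted clock genes at each of these durations and 0 at 30 and 120 min. Over all 9065 genes the share over the 5 durations in order was 10.2%, 2.67%, 3.43%, 6.98% and 3.81%. Clock was higher in A at both times, with 0.0287 against 0 at 15 min and 0.529 against 0.436 at 90 min, and Bhlhe40 was higher in B.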
